A study of Homo sapiens with 24 samples.

Results

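Counts under 7 gene names were described, of 61248 features counted in each library. The names are ERCC1 with POLR1G, HNRNPA2B1 with CBX3, ENO3 with PFN1, and SCLT1. They were chosen by name, as genes that share exon bases with a gene on the other strand and that were put forward because counts at these loci were lower after differentiation. The fall with differentiation is therefore what picked them, and it is given here as a description with no test. A fall with no overlap between days was seen for 4 of the 7 names. Counts under ERCC1, HNRNPA2B1, ENO3 and SCLT1, scaled to the library total, were lower in every day 14 library than in any day 0 library of the same genotype. The same held for 4.55% of all 10971 features tested in controls and 5.82% in knockouts. POLR1G, CBX3 and PFN1 had overlapping days. Of these, CBX3 was still lower at day 14 on means, with day 0 2.62-fold above day 14 in controls and 1.33-fold in knockouts.

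The cells are H7, a line of human embryonic stem cells. Libraries came from 2 control lines and 2 lines that lost BRAT1 by knockout, a factor that binds the RNA-cleaving subunit of the Integrator complex. Each line was sampled undifferentiated at day 0 and as neural progenitors after 14 days of ventral differentiation, with 3 biological replicates lettered A to C, so that each genotype and day has 6 libraries and the series has 24. All groups share the parental line, Trizol extraction, poly(A) selection and Click-Seq, a library method that attaches the adapter by click chemistry. How the knockout was made, and whether each line is a single clone, is not given in the sources used here, and with only 2 lines per genotype the p-values measure the spread between libraries of those lines.

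Library totals ran from 1407832 to 2143871 counts at day 0 and from 2228736 to 3726227 at day 14. A library had 9299 to 15116 features with a count at day 0 and 20769 to 25247 at day 14, and the 100 most abundant features took 53.1 to 58.4% and 43.1 to 50.4% of the counts. Levels are in CPM, the count scaled to the library total. At day 14 the targeted gene, BRAT1, averaged 252 ± 45.9 CPM in control and 46.2 ± 38.0 CPM in knockout libraries (SD, n = 6). Single libraries had 186 to 317 CPM in controls and 7.66 to 86.8 CPM in knockouts. Every day 0 library had 0 to 10 counts under BRAT1. The summed level of 10 pluripotency markers was 45.6 to 284.5 CPM at day 0 and 66.9 to 161.8 CPM at day 14. The sum of 9 neural progenitor markers was 21.5 to 123.7 CPM at day 0, 272.8 to 486.0 CPM in day 14 controls and 594 to 1163 CPM in day 14 knockouts. SOX2 is in both of these lists. The 3 neural crest markers summed to 57.0 to 92.4 CPM in day 14 controls and 1.49 to 20.03 CPM in day 14 knockouts. Most of that was SOX10, with means of 69.4 and 9.72 CPM. The 5 neuron markers summed to 20.2 to 55.9 CPM in day 14 controls and 65.8 to 196.7 CPM in day 14 knockouts. Mesendoderm markers did not exceed 6.65 CPM in any library, with SOX17 at 0 in both day 14 genotypes, and mesenchyme markers did not exceed 31.1 CPM. In such bulk libraries fewer cells of a type and less RNA per cell cannot be told apart.

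What counts under a name mean depends on strand at these loci. An annotated antisense gene was set beside its coding partner in 2280 places with at least 100 counts, and in 1601 of them (70.2%) the antisense name held more. Reads counted to the strand opposite their gene would give that direction, so counts listed under one name of a pair may hold reads of its partner. All 7 features are uncertain for this reason, and so are BRAT1 and the marker sums given above. Every sentence, above and below, speaks of counts under a name. Low counts under BRAT1 at day 0 thus do not show that the gene was silent there. The strand percent of a library is the share under the coding name over 1022 of the 1601 places, each with at least 1000 counts. Only places with more counts under the antisense name entered it, so it is low by that choice. It was 4.84 to 5.55% in day 14 controls and 5.81 to 8.53% in day 14 knockouts, with no overlap (exact two-sided permutation test, p = 0.00216, the smallest that 6 against 6 libraries allow). At day 0 it was 3.41 to 7.74% and 3.45 to 7.25% (exact permutation p = 0.799).

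The 7 genes serve unrelated basic functions. ERCC1 forms with ERCC4 (XPF) the nuclease that cuts damaged DNA on the 5′ side in nucleotide excision repair, and POLR1G is a subunit of RNA polymerase I, which transcribes ribosomal RNA genes. HNRNPA2B1 binds nascent and spliced RNA, and CBX3 is the HP1γ protein that reads methylated histone H3 in chromatin. ENO3 encodes the β-enolase of glycolysis, best known from muscle, and PFN1 encodes profilin, which binds actin monomers. SCLT1 is a protein of the centriole's distal appendages, which are needed to build a cilium.

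The 4 loci, placed on GRCh38 with GENCODE release 29, overlap in different ways. ERCC1 (ENSG00000012061, chr19:45407333-45478828, minus strand) and POLR1G (ENSG00000117877, chr19:45406209-45410766, plus strand) run towards each other and share 1593 exon bases, of which 1366 are in POLR1G coding sequence. HNRNPA2B1 (ENSG00000122566, chr7:26173057-26201529, minus) and CBX3 (ENSG00000122565, chr7:26201162-26213356, plus) run apart and share 368 exon bases near their starts, none coding in CBX3. The RefSeq starts of these 2 genes lie 697 bp apart. ENO3 (ENSG00000108515, chr17:4948092-4957131, plus) starts inside PFN1 (ENSG00000108518, chr17:4945652-4949061, minus), and the 111 shared exon bases all lie in PFN1 coding sequence. SCLT1 (ENSG00000151466, chr4:128864921-129093607, minus) shares 308 exon bases with the end of JADE1, a chromatin-linked zinc finger gene, and 291 with the start of C4orf33. The starts of SCLT1 and C4orf33 in RefSeq are 173 bp apart.

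**Figure D1:**
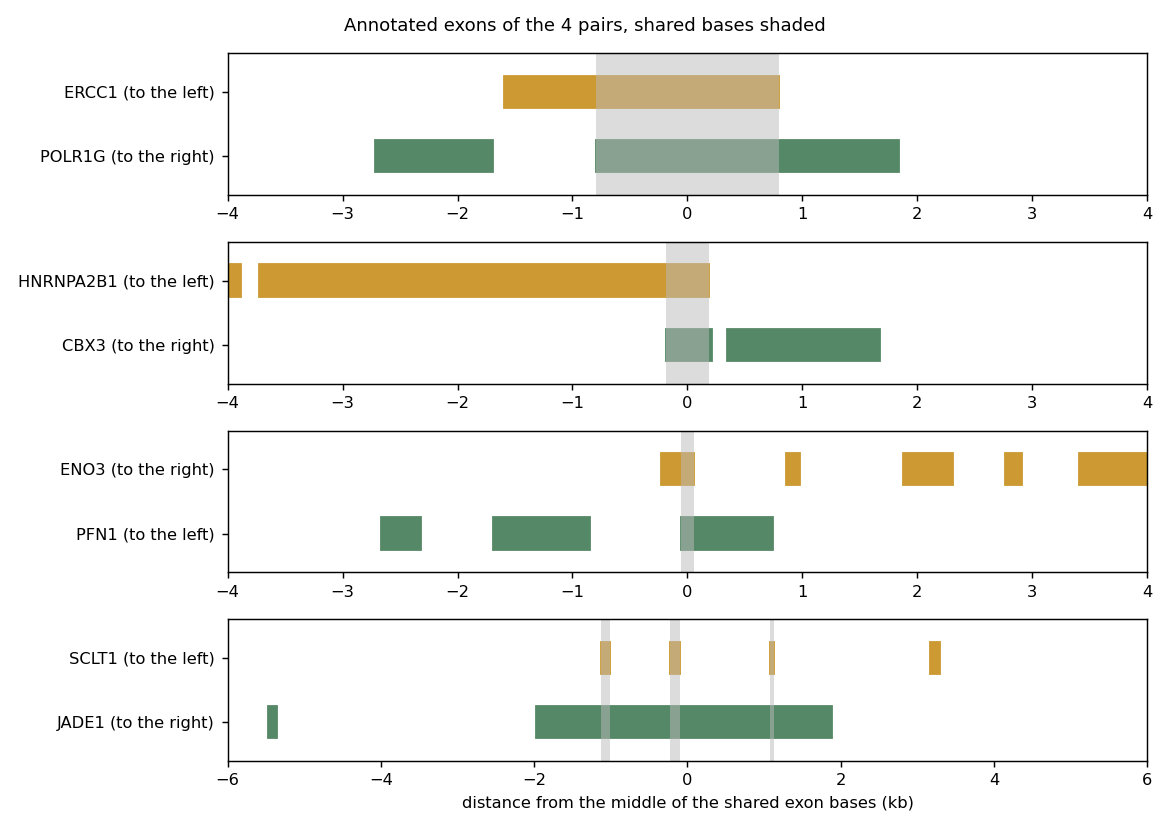
Annotated exons (union of all GENCODE release 29 transcripts) of the 4 pairs, against distance in kb from the middle of their shared exon bases. Grey shading marks the shared bases, 1593 bp for ERCC1 and POLR1G, 368 bp for HNRNPA2B1 and CBX3, 111 bp for ENO3 and PFN1, and 308 bp for SCLT1 and JADE1. The direction of transcription is beside each name.

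A short stretch of each overlap shows which letters both genes claim. They were read from the GENCODE transcripts, each 5′ to 3′ on the strand of the gene named. The POLR1G window (chr19:45409475-45409504, plus) holds the POLR1G stop codon in capitals, and all 30 of its bases are also exon bases of a protein-coding ERCC1 transcript on the other strand. The JADE1 window (chr4:128872236-128872265, plus) holds the JADE1 stop codon in capitals within an exon of a SCLT1 transcript that has no coding sequence. The PFN1 window (chr17:4948359-4948388, minus) is PFN1 coding sequence in which the 15 bases in capitals are also the end of an exon of a protein-coding ENO3 transcript. The ENO3 line gives the same bases on the strand of ENO3. The CBX3 window (chr7:26201515-26201544, plus) begins, in capitals, with 15 bases that are also in a retained-intron transcript of HNRNPA2B1.
POLR1G: aagcagcagcagcagcagcctgtgTAGtct
JADE1: atcaggagaagcatcttggcttctTGAtgc
PFN1: gggtggaacgcctacATCGACAACCTCATG
ENO3: CATGAGGTTGTCGATgtaggcgttccaccc
CBX3: TCCCCCTTCCCTCCCcttggggaccaccgg

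ENO3, whose counts differed most between genotypes, is also shown upstream of the later of its 2 RefSeq starts, at 4951119. The 211 bases shown (chr17:4950869-4951079, plus, GRCh38, from RefSeq) lie between annotated ENO3 exons, since the gene has exons further upstream, and have a GC content of 59.7%. Capitals mark the CCAAT box, read here on the other strand.
ENO3 upstream: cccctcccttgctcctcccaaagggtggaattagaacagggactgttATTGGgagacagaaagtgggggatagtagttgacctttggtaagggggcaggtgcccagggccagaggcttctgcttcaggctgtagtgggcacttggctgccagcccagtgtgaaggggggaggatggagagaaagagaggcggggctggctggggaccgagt
All 7 names matched the RefSeq promoter table, ERCC1 with 3 starts and ENO3 with 2. Motifs were searched on both strands in the 250 bases before each start, and the same was done for 35116 windows in all. CCAAT was in the windows of HNRNPA2B1 and SCLT1, in 1 of 2 for ENO3 and in 1 of 3 for ERCC1, and in 32.0% of all windows. The GC box GGGCGG was in those of CBX3, PFN1, SCLT1 and in 1 of 3 for ERCC1, against 42.6% of all windows. The ETS letters CCGGAAG were in the CBX3 window and 1 ENO3 window (8.52% of all). TATAAA (10.7%), AAGATGGCG (0.652%, YY1) and GCGCATGCG (1.64%, NRF1) were in none of the members' windows. A match here is a run of letters, not a binding site.

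At day 0, counts under ERCC1, HNRNPA2B1, ENO3 and SCLT1 were among the most abundant in the libraries, and by day 14 they were not. Together these 4 names held 1.497 to 1.86% of all counts at day 0 (median 1.73%) and 0.105 to 0.202% at day 14 (median 0.151%). Their rank among all features was 17 to 31 for ERCC1, 19 to 48 for HNRNPA2B1, 22 to 36 for ENO3 and 39 to 67 for SCLT1 at day 0. At day 14 the ranks were 310 to 430, 1105 to 1702, 70 to 219 and 721 to 1483. Of 7 names, these 4 had all 6 day 14 libraries below all 6 day 0 libraries in both genotypes. Over all 10971 features tested, 4.55% did so in controls and 5.82% in knockouts. Since this contrast chose the members, nothing is read from that count.

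Fold changes between days were taken from 1 edgeR fit of all libraries, with SE and no test. All features tested had a median log2 difference, day 14 over day 0, of 0.60 in controls and 0.65 in knockouts, and 42.8 and 46.3% of them passed the edgeR test. That median shift was 0.83 and 1.04 with RLE scaling and 1.16 and 1.21 with library totals alone. Each value below is to be read against it. With 10 counts or fewer in some day 0 libraries, PFN1 has the loosest values.

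ERCC1 ran at 3884 to 5403 CPM in day 0 controls (median 4896) and 387 to 427 CPM in day 14 controls (median 405). In knockouts it was 4453 to 7279 CPM (median 5518) and 302 to 391 CPM (median 320). The lowest day 0 library was thus many times above the highest day 14 library. On means, day 0 was 12.0-fold above day 14 in controls and 16.8-fold in knockouts, and the fitted log2 differences were -4.12 (SE 0.16) and -4.59 (SE 0.16).

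POLR1G, the polymerase I subunit on the other strand, did not follow it. It had 32.3 to 195.2 CPM in day 0 controls (median 64.9) and 122 to 202 CPM in day 14 controls (median 175). Knockouts had 41.3 to 133.2 CPM (median 76.3) and 124 to 204 CPM (median 185). Day groups overlapped in both genotypes, with means 1.86-fold and 2.06-fold higher at day 14. The fitted log2 differences were 0.41 (SE 0.31) and 0.51 (SE 0.31), which is 0.19 and 0.14 below the median of all features. Of the settings tried they were above that median with DESeq2 alone (0.57 against 0.25, and 0.90 against 0.77). RLE scaling in edgeR gave POLR1G nearly the same values, 0.56 and 0.90, but medians of 0.83 and 1.04. The DESeq2 medians are over all features with a count and the RLE medians over those that passed the count filter, so the medians differ and not POLR1G.

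HNRNPA2B1 showed the widest gap of the 7. Controls had 2896 to 5967 CPM at day 0 (median 4735) and 83.2 to 125.2 CPM at day 14 (median 95.1). Knockouts had 2354 to 6443 CPM (median 4649) and 70.3 to 122.1 CPM (median 90.6). Day 0 means were 46.2-fold and 48.8-fold above day 14, and the fitted log2 differences were -6.05 (SE 0.24) and -6.13 (SE 0.24).

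CBX3, which starts beside it, was low on both days and scattered at day 0. Controls had 15.5 to 243.3 CPM at day 0 (median 93.7) and 34.2 to 73.1 CPM at day 14 (median 41.0). Knockouts had 20.7 to 166.3 CPM (median 94.3) and 50.3 to 86.4 CPM (median 69.3). The days overlapped in both genotypes. Fitted log2 differences were -1.92 (SE 0.46) in controls and -0.96 (SE 0.45) in knockouts, and stayed below 0 under each scaling tried.

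ENO3 kept the highest day 14 level of the set. Day 0 values were 4144 to 5470 CPM in controls (median 4856) and 3839 to 5446 CPM in knockouts (median 4349). At day 14 they were 1060 to 1342 CPM (median 1189) and 519 to 739 CPM (median 609). Neither genotype's days overlapped. The day 0 mean was 3.99-fold above day 14 in controls and 7.33-fold in knockouts, with fitted log2 differences of -2.54 (SE 0.16) and -3.40 (SE 0.17).

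PFN1, an abundant cytoskeletal protein in most cells, had few counts under its name. Controls had 6.91 to 23.1 CPM at day 0 (median 13.1) and 19.7 to 48.0 CPM at day 14 (median 32.5). Knockouts had 4.21 to 28.1 CPM (median 18.2) and 19.8 to 48.7 CPM (median 24.9). Days overlapped, and the fitted log2 differences of 0.72 (SE 0.47) and 0.32 (SE 0.47) lie on either side of the median of all features. The control value was below that median without the count filter (0.82 against 0.97), with the replicate block (0.72 against 0.79), without control line 1 (0.87 against 0.94) and without control line 2 (0.65 against 0.83).

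SCLT1 had 2078 to 3367 CPM in day 0 controls (median 2549) and 119 to 205 CPM in day 14 controls (median 161). Knockouts had 2137 to 2813 CPM (median 2574) and 92.6 to 135.1 CPM (median 117). The days did not overlap in either genotype. Day 0 means were 16.6-fold and 21.6-fold above day 14, and the fitted log2 differences were -4.57 (SE 0.18) and -4.96 (SE 0.18).

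Counts under different names are compared per kb of annotated exon of the gene named. A partner shares only part of those exons. Where counts hold reads of a partner, the value per kb is thus not a level of either gene. At day 0 the median over 12 libraries was 1086 CPM per kb under ENO3, 903 under ERCC1, 511 under HNRNPA2B1 and 310 under SCLT1, then 20.3 under CBX3, 18.2 under POLR1G and 7.42 under PFN1. ERCC1, at 697 CPM per kb or more, stood just above HNRNPA2B1, at 695 or less, and SCLT1, at 251 or more, far above CBX3, at 52.4 or less. The ranges of the other neighbours in this order overlapped. At day 14 the order was ENO3 with 210, ERCC1 with 69.7, POLR1G with 49.3, SCLT1 with 16.1, PFN1 with 15.6, CBX3 with 11.4 and HNRNPA2B1 with 10.04 CPM per kb. ENO3 at 121 or more stood apart from ERCC1 at 76.7 or less, and POLR1G at 33.5 or more from SCLT1 at 24.7 or less, while the other neighbours overlapped. HNRNPA2B1 thus went from the third to the last of the 7.

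**Figure D2:**
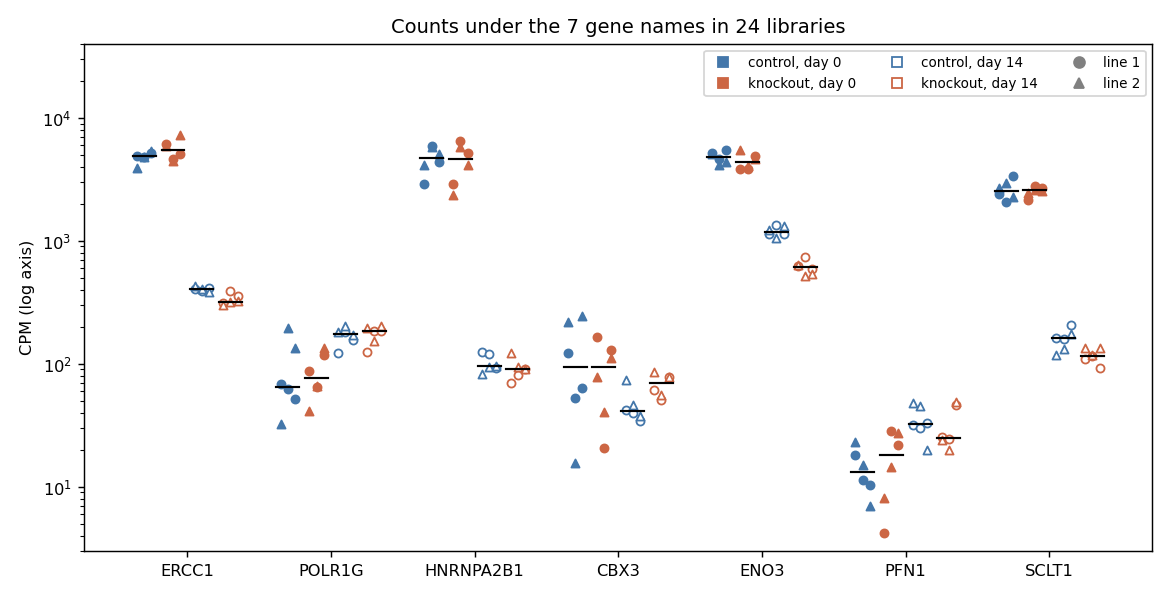
CPM (log axis) under each of the 7 names in the 24 libraries, filled at day 0 and open at day 14, with circles for line 1 and triangles for line 2. The short bars are group medians. ERCC1, HNRNPA2B1, ENO3 and SCLT1 have day 0 libraries at 2078 CPM or more and day 14 libraries at 1342 CPM or less, while POLR1G, CBX3 and PFN1 have overlapping days.

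The share of counts within a pair does not depend on library scaling. Under POLR1G lay 0.826 to 3.87% of the pair's counts in day 0 controls and 23.2 to 33.2% in day 14 controls. For CBX3 beside HNRNPA2B1 the shares were 0.269 to 5.06% and 25.05 to 46.8%. For PFN1 beside ENO3 they were 0.159 to 0.455% and 1.48 to 4.13%, and for JADE1 beside SCLT1 0.0909 to 2.50% and 3.21 to 11.5%. In controls the second name of each pair held a larger share in every day 14 library than in any day 0 library. The fall of the first name chose the loci, so this shift is a description.

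BRAT1 loss was then compared with control within each day, which is not the contrast that chose the members but shares the control libraries with it. The comparison asks what loss of the Integrator partner changed in stem cells and in progenitors. At day 14, counts under ENO3 and SCLT1 fell and those under CBX3 rose (edgeR quasi-likelihood test, Benjamini-Hochberg adjusted p below 0.05), 3 of 7 members beside 21.7% of all 11408 features tested. ERCC1, POLR1G, HNRNPA2B1 and PFN1 did not pass. The median log2 difference of the 7 members was -0.18, and that of all features 0.07.

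ENO3 had 1135, 1342 and 1147 CPM in control line 1 and 1230, 1060 and 1315 CPM in control line 2. It had 629, 739 and 590 CPM in knockout line 1 and 631, 519 and 534 CPM in knockout line 2. All 6 knockout libraries lay below all 6 controls, as they did for 6% of the features tested. Means were 1205 ± 110.4 and 607 ± 79.9 CPM (SD, n = 6), a log2 difference of -1.001 (SE 0.12, edgeR adjusted p = 6.6e-07). ENO3 passed under each of 24 alternatives, with log2 differences of -1.18 to -0.59 and adjusted p from 9.92e-19 to 0.00928. The smallest difference, -0.59, came with the strand percent of the libraries as a covariate.

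SCLT1 had 161, 160 and 205 CPM in control line 1 and 119, 133 and 175 CPM in control line 2, against 109, 116 and 92.6 CPM in knockout line 1 and 135, 117 and 135 CPM in knockout line 2. The genotypes overlapped through control line 2, with 4 of 6 knockouts below every control. The log2 difference was -0.45 (SE 0.15), with an edgeR adjusted p of 0.0317. The call was lost under 9 of 24 alternatives, among them without control line 1 (adjusted p = 0.293), without knockout line 1 (0.12), with counts summed per line (0.0837) and with the strand percent as a covariate (0.386), and its adjusted p over all of them ran from 0.0132 to 0.386. Leaving out replicate C of control line 1, of control line 2 or of knockout line 1 also ended the call (adjusted p = 0.0875, 0.0623 and 0.0808).

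CBX3 had 42.1, 39.95 and 34.2 CPM in control line 1 and 73.1, 46.5 and 37.7 CPM in control line 2. In the knockouts it had 61.0, 50.3 and 77.6 CPM in line 1 and 86.4, 55.5 and 78.5 CPM in line 2. Of the 6 knockouts 3 were above every control, and 1 control library, line 2 replicate A, lay among the knockouts. The log2 difference was 0.55 (SE 0.19, edgeR adjusted p = 0.0357), and 17 of 24 alternatives ended the call, with adjusted p from 0.00821 to 0.799. Without that control library the adjusted p was 0.00821, with DESeq2 0.0599 and with the strand percent as a covariate 0.614. Its call thus rests on single libraries and settings.

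ERCC1 lay just outside the threshold. Controls had 405, 395 and 410 CPM in line 1 and 427, 406 and 387 CPM in line 2, against 314, 391 and 353 CPM in knockout line 1 and 302, 315 and 324 CPM in knockout line 2. In 5 of 6 knockouts the level was below every control. The log2 difference was -0.29 (SE 0.12, edgeR adjusted p = 0.0687). It passed under 4 of 24 alternatives: DESeq2 (0.0275), no filter on low counts (0.0468), without knockout line 1 (0.0132) and without its replicate B (0.0163). Over all alternatives its adjusted p ran to 0.795.

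The other members gave no call in the main fit. HNRNPA2B1 averaged 102 ± 16.7 CPM with BRAT1 and 91.4 ± 17.4 CPM without (SD, n = 6), a log2 difference of -0.18 (SE 0.15, edgeR adjusted p = 0.447). PFN1 averaged 34.7 ± 10.5 and 31.4 ± 12.7 CPM (SD, n = 6), with a difference of -0.18 (SE 0.24, edgeR adjusted p = 0.658). With the strand percent as a covariate the PFN1 difference was -0.85 (SE 0.36, edgeR adjusted p = 0.138), the widest of its 24 alternatives, which otherwise ran from -0.35 to -0.09. POLR1G averaged 169 ± 27.1 and 174 ± 29.9 CPM (SD, n = 6), with a difference of 0.03 (SE 0.14, edgeR adjusted p = 0.915). A p above the threshold does not show that these levels were equal.

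**Figure D3:**
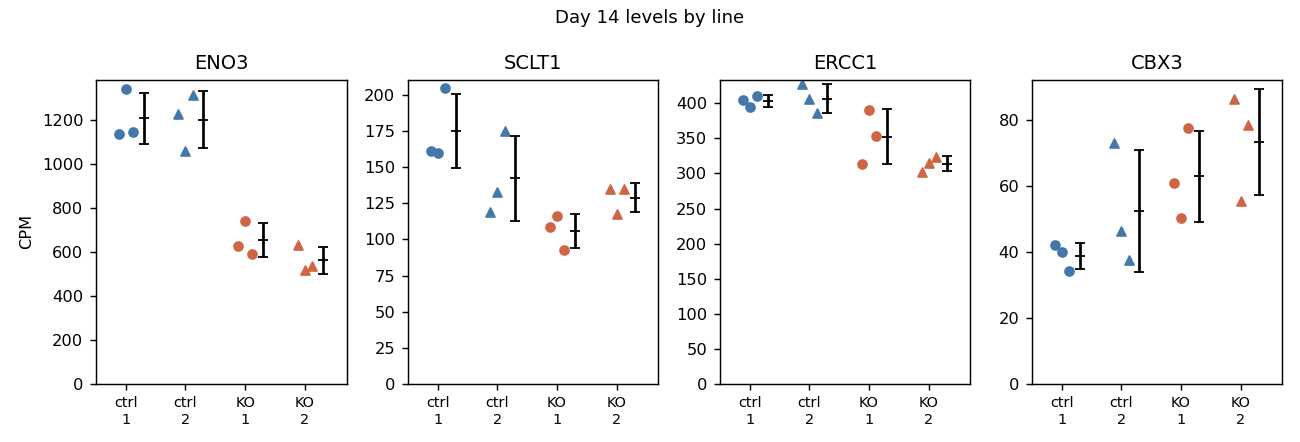
Day 14 CPM under ENO3, SCLT1, ERCC1 and CBX3 in the 3 libraries of each line (axes from 0), with mean and SD per line beside the points. ENO3 separates the genotypes, at 1060 CPM or more in controls and 739 CPM or less in knockouts, and the other 3 overlap.

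The strand percent was higher in every day 14 knockout than in any control. It cannot be told apart from BRAT1 loss in these libraries, and a fit that holds both cannot divide them. The sums of neural progenitor and neuron markers were also higher and that of neural crest markers lower in those knockouts, with no overlap, and none of those markers was at 0 in all libraries of a day 14 genotype. The part of the marker levels in the differences of the members was not tested. With the strand percent in the model, ENO3 passed the threshold and the other 6 members did not. The log2 difference of SCLT1 was then -0.35 (SE 0.24, from 0.15), that of CBX3 0.28 (SE 0.29) and that of ERCC1 -0.09 (SE 0.16).

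At day 0 none of the 7 members passed. edgeR called 0 of 4832 features (0%), with 99 at unadjusted p below 0.05 and none of the members among them, and DESeq2 called 0 with 868 at unadjusted p below 0.05. With all 24 libraries in 1 fit edgeR called 116 of 10971 features at day 0, and without the count filter 13 of 26995, again with 0 members. The log2 differences were 0.17 (SE 0.19) for ERCC1, -0.14 (SE 0.42) for POLR1G, -0.11 (SE 0.25) for HNRNPA2B1, -0.42 (SE 0.56) for CBX3, -0.15 (SE 0.17) for ENO3, 0.27 (SE 0.67) for PFN1 and -0.09 (SE 0.18) for SCLT1. Groups overlapped for each. ENO3 averaged 4804 ± 509 and 4452 ± 655 CPM (SD, n = 6), and SCLT1 2634 ± 478 and 2535 ± 233 CPM (SD, n = 6). The SE of CBX3 at day 0 was as large as its difference at day 14, so a difference of that size was not detectable.

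**Figure D4:**
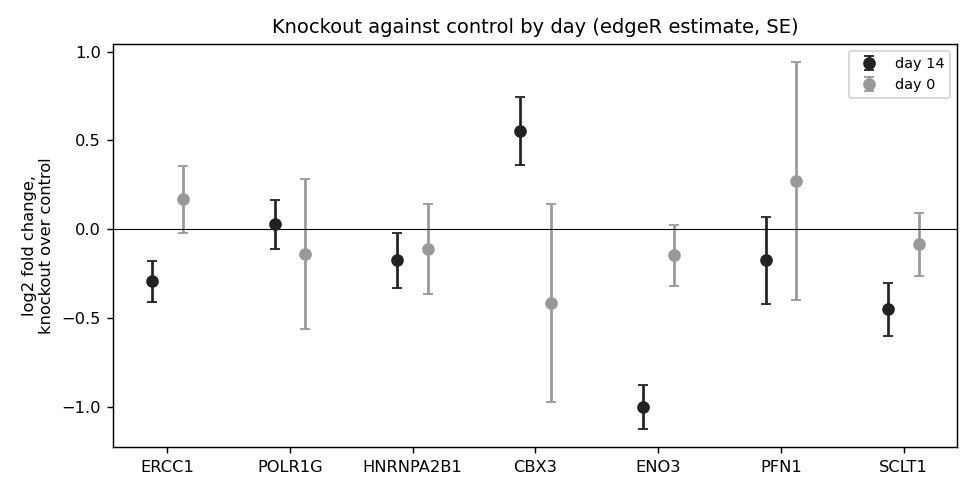
Log2 fold change, BRAT1 knockout over control, with SE, for the 7 names at day 14 (black) and day 0 (grey), from edgeR fits of 6 against 6 libraries. ENO3 at day 14, at -1.001, lies farthest from 0, and the day 0 bars of CBX3, PFN1 and POLR1G are the widest.

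How far the day difference itself depended on genotype was given as a value with no test, since the day contrast chose the members. The knockout minus control difference in log2 change over days was -0.87 (SE 0.21) for ENO3, -0.47 (SE 0.19) for ERCC1, -0.38 (SE 0.22) for SCLT1 and -0.08 (SE 0.27) for HNRNPA2B1. For CBX3 it was 0.96 (SE 0.63), for PFN1 -0.41 (SE 0.66) and for POLR1G 0.10 (SE 0.43). Over all 10971 features the median of this difference was -0.07. Values were below 0 for all 4 names with a wide gap between days, but that of HNRNPA2B1 was close to the median of all features and smaller than its SE.

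Lines of one genotype did not differ detectably at these loci. edgeR called 0 of 7 members between control lines at day 14 (0.244% of all features called) and between knockout lines at day 14 (0.402%). It also called 0 between control lines at day 0 (0%, with 97 features at unadjusted p below 0.05 and 14 called by DESeq2) and between knockout lines at day 0 (0%, with 117 and 0). None of the members had an unadjusted p below 0.05 in these 4 edgeR comparisons. The smallest line differences in p were those of HNRNPA2B1 and SCLT1 between control lines at day 14, at -0.31 (SE 0.18) for both on the log2 scale.

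Within the 4 pairs, the second name held a larger mean share in day 14 knockouts in each, and none of these differences passed adjustment. SCLT1 was paired with JADE1, with 308 shared exon bases, and not with C4orf33, with 291. Counts under C4orf33 fell more in day 14 knockouts than those under SCLT1 (log2 -1.10 and -0.45). A share of C4orf33 would thus go the other way, and it was not tested. The POLR1G share was 29.3 ± 3.51% in control libraries and 34.2 ± 4.11% in knockout libraries (exact permutation p = 0.0563, SD, n = 6). The CBX3 share was 30.9 ± 8.31 and 42.7 ± 4.26% (exact permutation p = 0.0195), the PFN1 share 2.85 ± 0.98 and 5.002 ± 2.22% (exact permutation p = 0.0433), and the JADE1 share 8.50 ± 2.90 and 13.1 ± 4.73% (exact permutation p = 0.0714). Adjusted over the 8 two-sided exact permutation tests of pair and day, each of the 4 came to p = 0.143. The strand percent moved the same way, and its part in these shares was not tested. At day 0 the mean shares were 1.79 and 1.49% for POLR1G, 2.72 and 2.45% for CBX3, 0.292 and 0.395% for PFN1, and 0.664 and 0.189% for JADE1, with adjusted exact permutation p of 0.364 to 0.82.

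**Figure D5:**
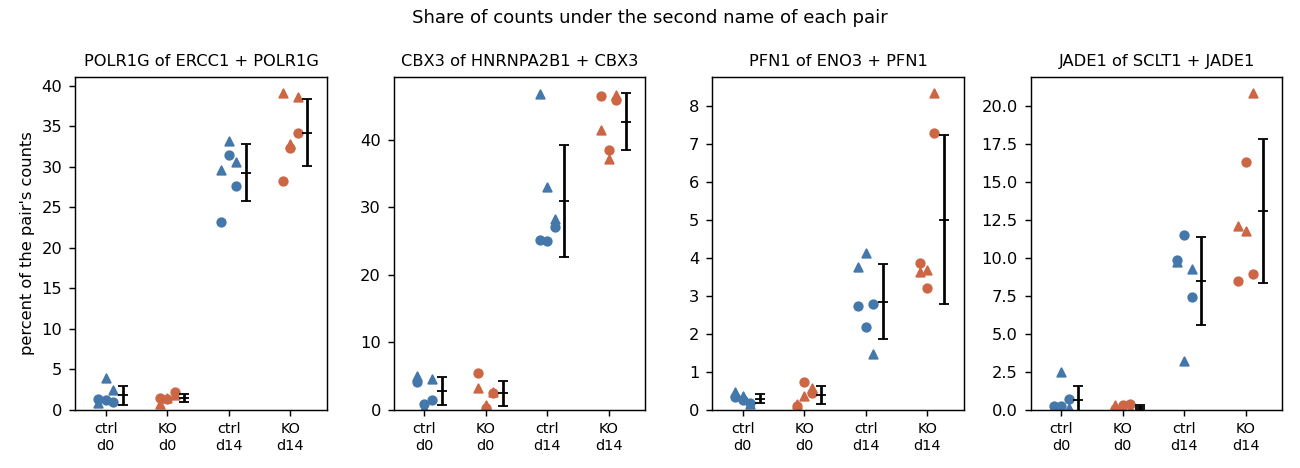
Percent of each pair's counts that lay under the second name, by day and genotype, in 24 libraries (circles line 1, triangles line 2, axes from 0, mean and SD beside the points; ctrl, control; KO, knockout). At day 14 the mean shares were 29.3 and 34.2% for POLR1G, 30.9 and 42.7% for CBX3, 2.85 and 5.002% for PFN1 and 8.50 and 13.1% for JADE1, and the genotypes overlap in each panel.

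Of the other genes at these loci, C4orf33 fell with BRAT1 loss at day 14. It shares its start region with SCLT1. Its level was 26.3 ± 2.699 CPM with BRAT1 and 12.4 ± 2.18 CPM without it (SD, n = 6), a log2 difference of -1.10 (SE 0.24, edgeR adjusted p = 0.00138). At day 0 its difference was -0.12 (SE 0.71). JADE1, at the far end of SCLT1, had 15.01 ± 5.79 and 18.6 ± 9.77 CPM at day 14, a difference of 0.28 (SE 0.35, edgeR adjusted p = 0.612). NFE2L3, a transcription factor gene whose body overlaps HNRNPA2B1 but shares no exon base with it, differed by 0.26 (SE 0.21, edgeR adjusted p = 0.414). RNF167 and PPP1R13L, within 1000 bp of PFN1 and ERCC1, differed by 0.23 (SE 0.49) and -0.21 (SE 0.69) and were not called. FOSB, inside ERCC1 on the other strand, had 0 to 26 counts in a library. MIR6088 had none in any library, and the pseudogenes ENSG00000275647 and ENSG00000281369 within SCLT1 had at most 5 and 7.

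Other genes of the members' pathways were counted next. Lists are given without the 7 members, beside 11% of all features called higher and 10.7% lower in day 14 knockouts. Of 15 tested nucleotide excision repair genes, 0 rose and 0 fell in day 14 knockouts by edgeR, with a median log2 difference of 0.30 beside 0.07 for all features. DESeq2 tested 22 and also called 0, with a median of 0.31 beside 0.24. Of 10 genes of the RNA polymerase I machinery 2 fell, namely its subunits POLR1H (-0.84, SE 0.26, edgeR adjusted p = 0.0214) and POLR1C (-0.42, SE 0.13, edgeR adjusted p = 0.0253), and POLR1C is shared with polymerase III.

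Among 20 hnRNP genes 4 rose, with a list median of 0.22. HNRNPU, a nuclear matrix and chromatin RNA binder, went from 1313 ± 157 to 1967 ± 209 CPM (SD, n = 6, log2 0.57, SE 0.12, edgeR adjusted p = 0.000726). HNRNPR differed by 0.70 (SE 0.20) and HNRNPA0 by 0.88 (SE 0.29). DESeq2 called 3 higher and 1 lower in that list. Of 13 HP1 proteins and partners 1 rose, the chromatin remodelling partner ADNP (0.69, SE 0.18, edgeR adjusted p = 0.00748).

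Of 14 genes of glycolysis 1 fell, and it was ENO1, the enolase of most tissues. Controls averaged 367 ± 94.9 CPM and knockouts 114 ± 60.9 CPM (SD, n = 6), a log2 difference of -1.72 (SE 0.32, edgeR adjusted p = 0.00283). Of 18 actin genes 1 rose and 1 fell. ACTG1, cytoplasmic γ-actin, differed by 0.66 (SE 0.21, edgeR adjusted p = 0.0333), and ENAH, which promotes filament growth, by -0.81 (SE 0.23, edgeR adjusted p = 0.00988). Of 9 centriole genes 1 rose, C2CD3 (1.06, SE 0.38, edgeR adjusted p = 0.0438), a call that DESeq2 did not make (adjusted p = 0.0546). At day 0, neither tool called a gene of any list.

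Between days in controls, where 28.4% of all features were called higher and 14.4% lower at day 14, each list but nucleotide excision repair had more genes called higher than lower. Of 13 tested repair genes 0 rose and 2 fell, with a median log2 difference of -0.26. The counts were 2 and 1 of 10 for RNA polymerase I (median 1.00), 8 and 2 of 20 for hnRNP genes (0.85) and 3 and 0 of 12 for HP1 partners (0.68). They were 4 and 1 of 15 for glycolysis (0.11), 8 and 0 of 18 for actin genes (1.71) and 2 and 0 of 9 for centriole genes (0.97).

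The features whose counts varied most like each member were found by Pearson correlation of log2 CPM over the 24 libraries after subtracting each day's mean, among 10971 features. The libraries share genotype, line, depth and replicate letter, none of which was removed, so these are descriptions. ENO3 was closest to PCBP1-AS1 (0.93) and ENSG00000258092 (0.91), and ERCC1 to MLX (0.88) and ENSG00000225420 (0.81). HNRNPA2B1 was closest to MRPS18C (0.83) and EOGT-DT (0.82), CBX3 to EPS8L1 and SLC35E2B (0.88 each), and SCLT1 to DLD and PDAP1 (0.72 each). POLR1G was closest to AARS2 (0.77) and PPP1R16A (0.76), and PFN1 to NKX6-2 and AEBP1 (0.77 each). Partners on opposite strands had low or negative values, with 0.18 for ERCC1 and POLR1G, -0.48 for HNRNPA2B1 and CBX3 and 0.12 for ENO3 and PFN1. At day 0 HNRNPA2B1 was highest and CBX3 lowest in replicate B of all 4 lines. The part of the replicate letter in their value was not tested. The highest values between members were 0.65 for ENO3 and SCLT1 and 0.61 for ERCC1 and ENO3.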

How the data were processed

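The authors deposited raw counts of reads per gene for each of 24 libraries. The submitters' processing notes name bcl2fastq 2.20.0, STAR 2.7.9a, featureCounts from Subread 2.0.1, DESeq2 1.34.0, R 3.5.1 and GRCh38; neither the annotation release nor the strand setting is given in the sources used here. Of 61248 features, 57070 were matched to GENCODE release 29 (90.18% of counts); POLR1G was matched by its Ensembl identifier. CPM is the count over the library total.

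Comparisons used the edgeR 4.0.16 quasi-likelihood F test (R 4.3.3, TMM, filterByExpr, robust), with Benjamini-Hochberg adjusted p under 0.05 over all features tested and genotype or line as the only term. The model took the libraries of a line as independent. All 7 members passed the count filter in every fit. Pair shares were compared by exact two-sided permutation. Fits were tested on simulated data. Libraries of a group differed beyond sampling noise (chi-square per feature 5.45 to 20.1 at day 14 and 33.3 to 91.2 at day 0).

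Named genes are the members, genes overlapping them or within 1000 bp, up to 3 called genes a list, and 2 nearest features per member. Members and lists were chosen with earlier results of these data known. Alternatives were DESeq2 1.42.0, RLE scaling, library totals alone for the day contrast, no count filter, no features above 1 percent of counts, counts summed per line, a replicate block, the strand percent as a covariate, 1 fit of all libraries, and each library or line left out.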

Additional observations from a re-analysis of the deposited data

Results flagged for a closer look

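In 4 of 44 groups of 6 libraries looked at, 1 library lay far from the other 5 by Dixon's criterion; chance alone does this in about 1 group in 20. In day 0 controls, ERCC1 was at 3884 CPM in line 2 replicate A, with the nearest library at 4847 CPM. In day 0 controls, the JADE1 share of the SCLT1 and JADE1 counts was 2.50% in line 2 replicate B, with the nearest at 0.725%. In day 14 controls, line 2 replicate A had 73.1 CPM under CBX3, with the nearest at 46.5 CPM. The same library had 46.8% of the HNRNPA2B1 and CBX3 counts under CBX3, with the nearest at 33.0%. That library lies among the knockouts in CBX3 CPM and above all 6 of them in the share, whose highest knockout value is 46.6%.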

How the results depend on the processing

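The count of members called at day 14 was 3. It was 1, ENO3 alone, with counts summed per line, without control line 1, with the strand percent as a covariate, and with all 24 libraries in 1 fit; leaving out 1 library gave 1 to 4. Called features in all were 2474, and 3300 with DESeq2, 1664 with counts summed per line, 1552 without control line 1, 1151 with the strand covariate and 241 in the fit of all libraries. Counts of 0 members at day 0 and between lines held under all alternatives run. Called features in all at day 0 were 0 in the main fit, but 116 of 10971 in the fit of all libraries and 13 of 26995 without the count filter. With counts summed per line and without control line 1 there was 1 each.

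POLR1G changed sign at day 14, from 0.03 to -0.0045 with DESeq2, -0.063 without the filter, -0.12 per line, -0.15 without control line 1, -0.057 without knockout line 2, -0.041 with the strand covariate, and -0.084 to 0.060 without 1 library. At day 0, POLR1G gave 0.42 without control line 2 and -0.32 to 0.25 without 1 library, CBX3 0.12 without control line 2, and HNRNPA2B1 0.016 without knockout line 2 and -0.26 to 0.020 without 1 library. The causes were not tested.

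The median log2 difference of the members between days was -2.54 in controls and -1.98 with library totals alone. In knockouts it was -3.40, and -3.01 with RLE scaling, -2.85 with library totals alone, -3.63 without knockout line 1, -3.15 without knockout line 2, -3.01 with DESeq2, and -3.50 to -3.21 without 1 library. The CBX3 share at day 14 differed by 11.8 percentage points, by 10.6 to 14.95 without 1 library, and passed without control line 2 replicate A (adjusted p = 0.0173, range 0.0173 to 0.143). At day 0 that share's difference was -0.86 to 0.21 and that of POLR1G -0.49 to 0.12 without 1 library. The centriole list had 1 called gene, and 0 with DESeq2.

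Replicate letters were compared by correlation between control and knockout libraries. At day 14 the values were -0.31 to 0.07 for the same letter and -0.10 to 0.23 for other letters. At day 0 the letters did separate, with 0.08 to 0.29 for the same letter and -0.22 to 0.05 for other letters. There 12 of 12 libraries were closest to their own letter, a hint from the data and not the design. The criterion set for pairing, every same-letter correlation above 0.1, was not met on either day. With the replicate block, 2256 features were called at day 14 and 0 at day 0. At day 14 the members gave ENO3 -1.01, CBX3 0.57 (edgeR adjusted p = 0.0336) and SCLT1 -0.44 (edgeR adjusted p = 0.0565). The main fits had no block, and at day 0 the block narrowed the SE. It gave HNRNPA2B1 -0.16 (SE 0.13, from 0.25), CBX3 -0.37 (SE 0.37, from 0.56) and ERCC1 0.16 (SE 0.14, from 0.19), none of them called. Between 6 and 49 counts under PFN1 in a day 0 library limit its values to counting error of that size.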

Other observations

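At day 0, 3 members each had their lowest level in the same replicate letter in all 4 lines. How many of all features do so was not counted. HNRNPA2B1 was lowest in replicate A, at 2354 to 4106 CPM, and highest in replicate B, at 5757 to 6443 CPM. CBX3 and ENO3 were lowest in replicate B, at 15.5 to 52.6 CPM and 3839 to 4658 CPM. For ENO3 in knockout line 1 this was nearly a tie, with 3839 CPM in replicate B and 3842 CPM in replicate A. What the letters share is not given in the sources used here, and the pattern was noticed after the values were seen.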
